A study of Mus musculus with 6 samples.

Results

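The globin genes encode the protein chains of hemoglobin. They were followed here through 15 probe sets, out of 45037 on the array that are not controls. Members were all probe sets whose annotated symbol is an Hba or Hbb gene, including those that the annotation pairs with several globin symbols. These 15 probe sets name 9 genes. 3 probe sets belong to Hbb-bh1, 3 to Hbb-y, 1 to Hba-x, 3 jointly to Hba-a1 and Hba-a2, 1 jointly to Hbb-bt, Hbb-bs, Hbb-b1 and Hbb-b2, 2 to Hbb-b2 alone, 1 to Hba-a1 alone and 1 to Hba-a2 alone. Ahsp, the gene of the alpha globin chaperone, is not analysed here.

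Cells were taken from fetal livers at embryonic day 14.5 by the antigen Ter119, which late red cell precursors carry on their surface. 3 wild type pools were compared with 3 pools labelled STAT5 knockout, each pool made from 3 to 5 embryos of a single genotype and hybridised to its own Affymetrix expression array. The labels give no allele, strain or sex and name no agent given to either group. STAT5 stands for the transcription factors STAT5A and STAT5B, which act downstream of the erythropoietin receptor. All 4 probe sets of Stat5a and Stat5b were lower on each knockout array than on each wild type array, with adjusted p between 0.237 and 0.532 (limma). The same order of groups was found at 8.95% of all probe sets. Except at the Stat5b probe set with a log2 difference of -1.29, the knockout means lay under the control level of 162.5, defined below. With dim values raised to that level, the wild type means there were 1.33-fold to 3.45-fold above the knockout means. The sources used here do not say which part of either gene was deleted. A lower signal checks the labels only where a probe set lies in that part.

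Hemoglobin is built from alpha-like and beta-like chains, each holding a heme. In the mouse, Hba-x (zeta globin), Hbb-y (epsilon-y globin) and Hbb-bh1 (beta-h1 globin) are embryonic genes, used mainly by the primitive red cells that arise in the yolk sac. Hba-a1, Hba-a2 and the adult beta globin genes are used by the definitive red cells that the fetal liver produces, and also by primitive cells. Primitive cells circulate through the fetal liver, so both sets of transcripts can be present in a preparation of its red cell precursors. Hbb-bs and Hbb-bt are the adult beta pair of the single haplotype of laboratory strains, and Hbb-b1 and Hbb-b2 that of the diffuse haplotype.

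The deposited values are linear signals. Their median on an array lay between 175.6 and 215.8. The control level, the 95th percentile of the signals of 27 probe sets for bacterial transcripts over all arrays, was 162.5. Each difference is the mean log2 signal of knockout pools less that of wild type pools. For the globin and Stat5 probe sets its standard error (SE) is that of limma's fit to all 45037 probe sets. Levels are mean log2 signal ± SD (n = 3 per genotype). The precision of levels and differences is limited by the 3 arrays in a group. An exact permutation test of 3 against 3 cannot give a two-sided p below 0.1 for any of these probe sets. Their adjusted p-values are Benjamini-Hochberg values over all probe sets. For the partner and marker genes of the lists further below, SE and adjusted p come from a separate limma fit over 18193 genes. The adjustment there is over those genes.

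In both genotypes the mean log2 signal of 12 of the 15 probe sets was above that of the control level. Most of these were among the brightest features of the arrays. 7 probe sets stood at 50% or more of the highest signal of the array on every array, and are described as near the ceiling. The 15 together made up between 1.11% and 1.45% of the summed signal of wild type arrays and between 1.02% and 1.28% of that of knockout arrays. This share counts the same transcripts several times and includes signals near the ceiling, so it is no measure of the globin fraction of the RNA.

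**Figure D1:**
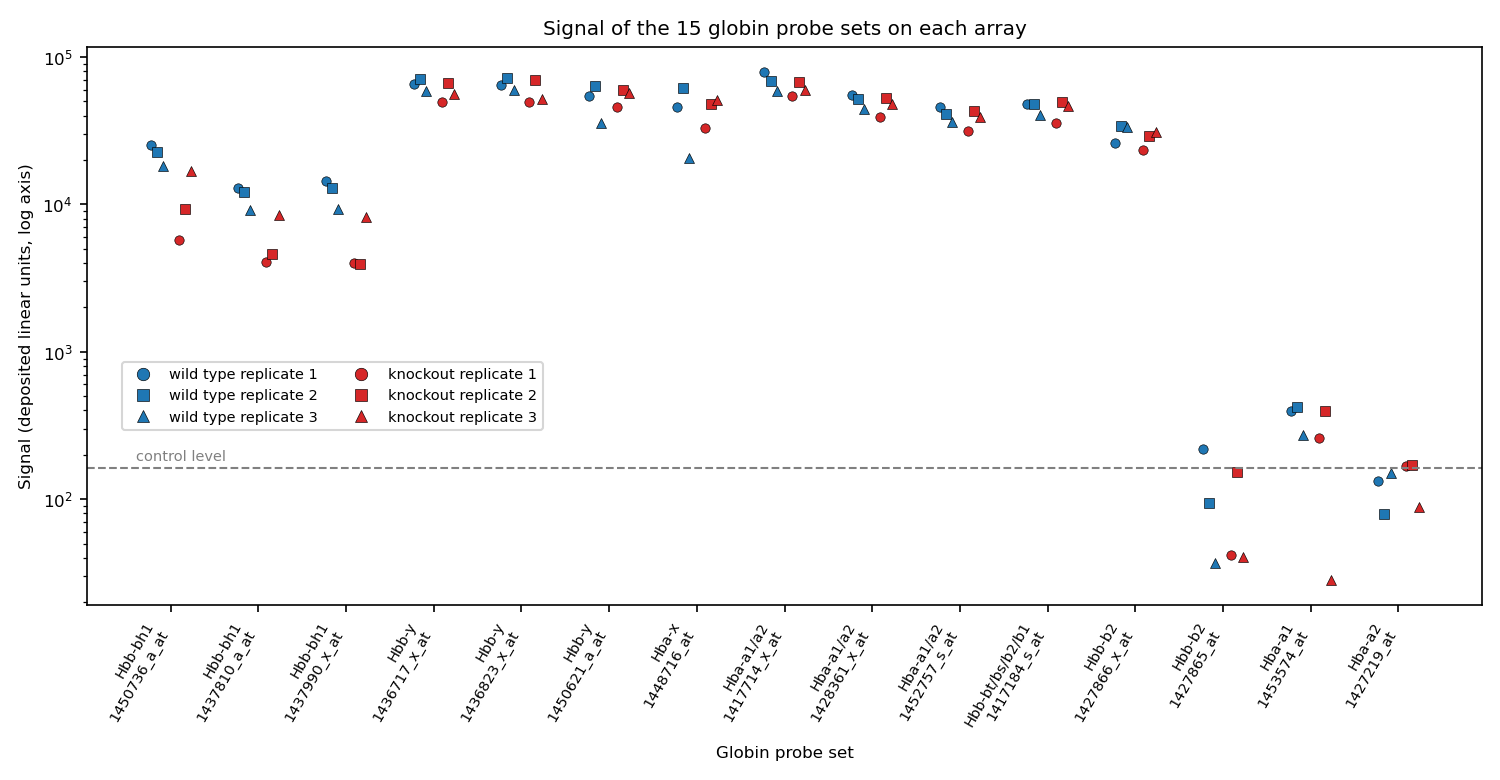
Signal of each of the 15 globin probe sets (x axis) on a log axis in deposited linear units (y axis), 1 point per array, with the control level of 162.5 as a dashed line. The 3 Hbb-bh1 probe sets are the ones whose knockout arrays all lie below their wild type arrays, and 3 probe sets of adult genes lie around the control level.

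No globin probe set passed an adjusted p of 0.05 in limma's fit, where 0% of all probe sets passed in either direction. With a mean-variance trend in the fit the count of globin probe sets was again 0, against 0.155% of all probe sets. At an unadjusted p under 0.05 there were 3 of 15, against 8.01% of all probe sets, and these were the 3 of Hbb-bh1. The groups did not overlap at the same 3 probe sets, all lower in knockout pools. Among all probe sets, 8.95% had non-overlapping groups with knockout lower. The median difference was -0.18 over the 15 probe sets and -0.07 over all probe sets.

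Hbb-bh1, the embryonic beta-like gene that is used early in primitive red cells, read lower on all knockout arrays at all of its probe sets. At the brightest probe set, 1450736_a_at, the signals were 25378.9, 22591.9 and 18200.1 in wild type replicates 1 to 3, and 5711.2, 9340.2 and 16948.7 in knockout replicates 1 to 3. Knockout replicate 3 was thus close to the lowest wild type array, which was 1.07-fold above it, and the other knockout arrays were well below. The mean level was 14.42 ± 0.24 for wild type and 13.24 ± 0.79 for knockout. The difference was -1.18 (SE 0.43), a 2.26-fold lower mean that did not pass the threshold (adjusted p = 0.607, or 0.268 with the trend, limma).

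The other Hbb-bh1 probe sets gave the same order of genotypes. At 1437810_a_at the signals were 12961.5, 12126.5 and 9151.4 in wild type and 4098.8, 4576.6 and 8474.4 in knockout pools. At 1437990_x_at they were 14427.0, 12839.4 and 9322.2 against 4034.6, 3932.4 and 8168.9. Here too knockout replicate 3 lay just under wild type replicate 3, with gaps of 1.08-fold and 1.14-fold. The differences were -1.06 (SE 0.35) and -1.25 (SE 0.37), with adjusted p of 0.576 and 0.550 (limma) and of 0.206 and 0.164 with the trend. The suffixes _x_at and _s_at mark probe sets of the array's design that can bind similar transcripts of other genes, and globin transcripts resemble each other. The 3 probe sets target 1 transcript and are no independent replicates of the difference.

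Knockout replicate 3 was the highest knockout array at all 3 Hbb-bh1 probe sets, and the lowest was replicate 1 at 1450736_a_at and 1437810_a_at and replicate 2 at 1437990_x_at. Relative to the wild type mean, knockout replicate 1 stood between -1.94 and -1.46 on the log2 scale, and knockout replicate 2 between -1.61 and -1.23. Knockout replicate 3 stood between -0.55 and -0.37, and wild type replicate 3 between -0.36 and -0.26. Without knockout replicate 3 the difference at the brightest probe set was -1.58, and without knockout replicate 1 it was -0.80. Hbb-bh1 lay well below the ceiling, between 5.54% and 32.2% of the highest signal of each array. In pooled cells, fewer cells that hold a transcript and less of it per cell cannot be told apart.

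**Figure D2:**
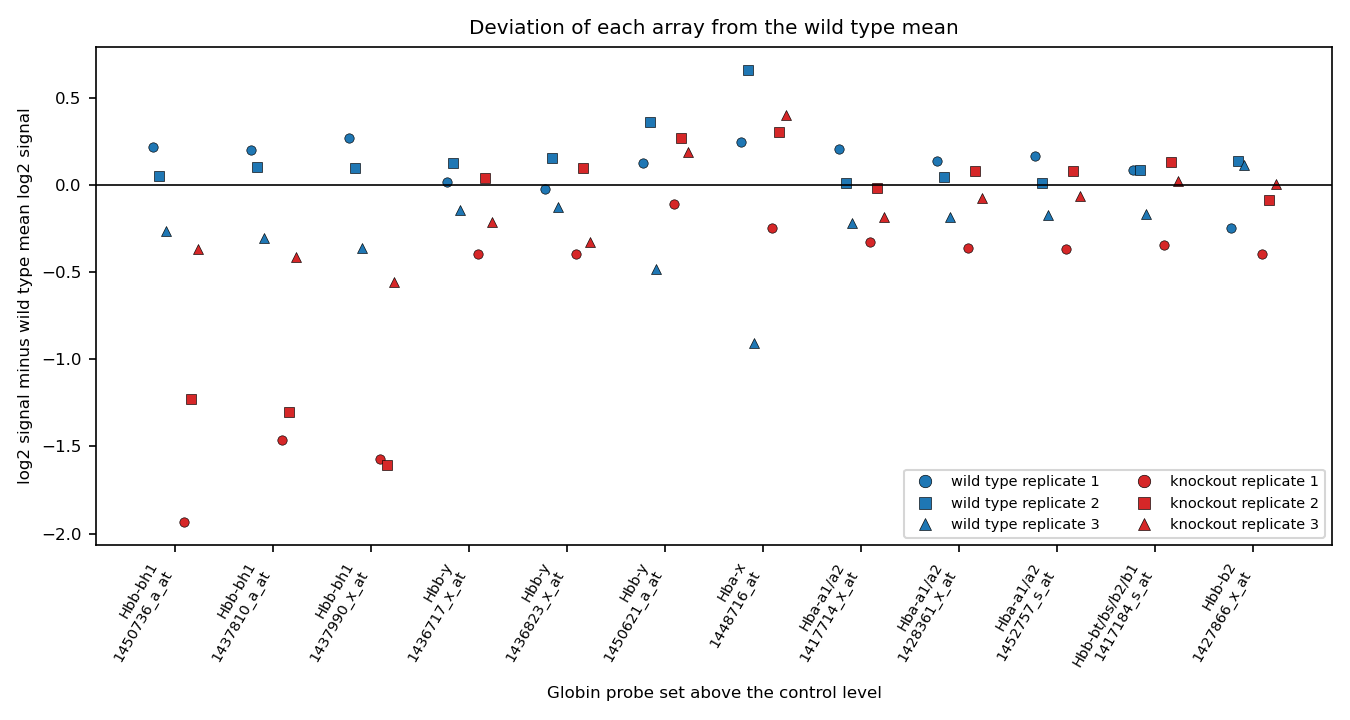
Deviation of each array from the wild type mean in log2 signal (y axis) at the 12 globin probe sets above the control level (x axis), 1 point per array. At Hbb-bh1 knockout replicates 1 and 2 lie between -1.94 and -1.23 and knockout replicate 3 between -0.55 and -0.37, whereas at Hba-x wild type replicate 3 is the lowest array.

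Hbb-y, the other embryonic beta-like gene, was near the ceiling at all 3 of its probe sets. These read between 81.5% and 99.5% of the highest signal at 1436823_x_at and between 83.7% and 97.7% at 1436717_x_at, with differences of -0.21 (SE 0.23) and -0.19 (SE 0.22). At 1450621_a_at, between 56.9% and 91.5% of the highest signal, the signals were 54375.1, 63923.9 and 35712.4 in wild type and 46165.1, 60148.3 and 56904.4 in knockout pools. The difference there had the opposite sign, 0.12 (SE 0.29), and was -0.13 without wild type replicate 3, the lowest array. At all 3 probe sets the genotypes overlapped. Values so close to the ceiling may not show whether the transcript differed. Whether the signal still rises with the transcript at that level was not measured.

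Hba-x, the embryonic alpha-like gene, has 1 probe set, 1448716_at. Its signals were 46175.1, 61526.8 and 20765.5 in wild type replicates 1 to 3 and 32794.2, 47959.2 and 51443.3 in knockout replicates 1 to 3. Wild type replicate 3 was the lowest of all arrays and wild type replicate 2 the highest, so that the wild type range enclosed all knockout values. The difference was 0.15 (SE 0.46), and -0.30 without wild type replicate 3 (adjusted p = 0.940 and 0.732, limma). The low array stood at 33.1% of the highest signal, and the other 5 between 58.6% and 84.4%. The same array was also the lowest at the Hbb-y probe set 1450621_a_at. The difference between Hbb-bh1 and the other embryonic globins in their response to genotype was not tested.

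The sequence before the start site is given for the embryonic genes Hbb-y and Hba-x, to set it beside that of adult genes below, from RefSeq on the build GRCm38.p6. The array files name no genome build, and the coordinates are those of the RefSeq table alone. Of the 9 genes 6 have an entry, and Hbb-bh1, Hbb-b1 and Hbb-b2 are without one. The window is the 250 bases before the start site, 5′ to 3′ on the strand of the gene. Capitals mark every match, on either strand, to the motifs searched. TATAAA is the TATA box, with CATAAA as a variant of it. CCAAT is the CCAAT box. CACCC is the core of the element bound by KLF1, and the longer CCACCC contains it. The letters AGATAA and also TGATAA are those of GATA elements. TTCNNNGAA is the core of the STAT5 element. CATAAA and the reverse strand of TGATAA share bases in the Hbb-y window. Hbb-y lies at chr7:103853208-103853457 on the minus strand and Hba-x at chr11:32276350-32276599 on the plus strand.
Hbb-y: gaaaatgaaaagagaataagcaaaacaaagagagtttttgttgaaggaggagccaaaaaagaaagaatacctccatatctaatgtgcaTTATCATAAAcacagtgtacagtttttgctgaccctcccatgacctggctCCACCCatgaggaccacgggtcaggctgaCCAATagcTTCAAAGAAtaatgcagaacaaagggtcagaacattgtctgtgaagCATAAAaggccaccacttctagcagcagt
Hba-x: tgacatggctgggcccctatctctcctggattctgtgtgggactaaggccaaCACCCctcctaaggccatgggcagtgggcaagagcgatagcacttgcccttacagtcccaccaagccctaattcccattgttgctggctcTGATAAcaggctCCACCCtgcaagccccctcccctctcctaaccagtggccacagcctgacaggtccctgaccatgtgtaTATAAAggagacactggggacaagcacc

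CACCC was found in 6 of 6 globin windows and in 52.0% of 32851 windows of the same length before RefSeq start sites. CCACCC was found in 5 of 6, all but that of Hbb-bs, against 28.1%. CCAAT was found in 5 of 6, all but that of Hba-x, against 33.8%. These are the letters of elements that globin promoters are known for, and a match is not a bound site. TGATAA was present in the windows of Hba-x, Hbb-y, Hba-a1 and Hba-a2, against 7.94% of all windows, and AGATAA in that of Hbb-bs, against 9.99%. TATAAA stood in the windows of Hbb-bt and Hba-x, from base -28 to base -23, against 12.4% of all windows. CATAAA stood in that of Hbb-y, from -29 to -24 and from -158 to -153, against 10.8%. TTCNNNGAA was matched once, in the Hbb-y window from -75 to -67, against 7.02% of all windows.

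The adult alpha globin genes Hba-a1 and Hba-a2 encode the alpha chains of definitive red cells. Their 3 shared probe sets were near the ceiling. At 1417714_x_at the signals were 78743.8, 68779.9 and 58481.6 in wild type and 54356.2, 67358.8 and 60033.4 in knockout pools. This was the brightest feature of wild type replicate 1 and of knockout replicate 1, and ranked between 1 and 9 on the 6 arrays. The genotypes overlapped, and the difference was -0.18 (SE 0.22), which becomes 0.041 after quantile normalization. The other shared probe sets, 1428361_x_at and 1452757_s_at, lay between 56.4% and 76.9% of the highest signal, each with a difference of -0.12 (SE 0.23) and overlapping groups.

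The adult beta globin probe set 1417184_s_at, shared by Hbb-bt, Hbb-bs, Hbb-b2 and Hbb-b1, was also near the ceiling. Its signals were 48203.1, 48254.5 and 40427.3 in wild type and 35755.0, 49710.1 and 46228.0 in knockout pools. Knockout replicate 1 was the lowest array and knockout replicate 2 the highest, and the difference was -0.06 (SE 0.23). The sign turned after quantile normalization (0.028), after median centring (0.048) and without knockout replicate 1 (0.076). The probe set 1427866_x_at, annotated to Hbb-b2 alone, read between 23508.6 and 33952.0, or 33.0% to 53.2% of the highest signal. Its difference was -0.16 (SE 0.23), with overlapping groups.

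Knockout replicate 1 was the lowest array at all 5 adult probe sets above the control level, between -0.39 and -0.33 from the wild type mean on the log2 scale. Its highest signal, 54356.2, was also the lowest maximum of the 6 arrays, whose other maxima ran from 62212.3 to 78743.8. At 1417184_s_at that array stood at 65.8% of its own highest signal, within the range of 61.2% to 74.3% over all arrays. The part of the array's lower maximum in the lower adult globin signals was not tested.

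The windows before the adult genes Hbb-bs (chr7:103827929-103828178, minus strand) and Hba-a1 (chr11:32283422-32283671, plus strand) are shown for comparison with the embryonic ones, with capitals as before.
Hbb-bs: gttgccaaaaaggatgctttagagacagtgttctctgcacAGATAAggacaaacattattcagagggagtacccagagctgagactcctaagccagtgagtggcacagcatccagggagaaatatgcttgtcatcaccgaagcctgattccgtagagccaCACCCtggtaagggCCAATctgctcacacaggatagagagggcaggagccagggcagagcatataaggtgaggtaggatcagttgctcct
Hba-a1: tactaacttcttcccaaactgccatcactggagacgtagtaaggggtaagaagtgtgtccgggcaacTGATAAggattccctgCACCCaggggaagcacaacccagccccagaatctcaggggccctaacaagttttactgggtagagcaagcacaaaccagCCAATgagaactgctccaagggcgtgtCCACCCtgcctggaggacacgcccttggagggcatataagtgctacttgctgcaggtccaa
In a local alignment the Hba-a1 and Hba-a2 windows were identical over 247 bases. Those of Hbb-bs and Hbb-bt shared 182 of 247 aligned positions (73.7%). Hbb-bs and the embryonic Hbb-y shared 120 of 212 (56.6%). With windows of alpha-like genes, Hbb-bs shared 113 of 201 for Hba-a1 (56.2%) and 125 of 219 for Hba-x (57.1%). The annotation separates the adult alpha pair at only 2 dim probe sets, described next.

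3 probe sets of adult genes lay around the control level and do not follow the abundant transcripts. The Hba-a1 probe set 1453574_at read 396.8, 419.5 and 273.6 in wild type and 260.2, 397.8 and 28.4 in knockout pools. The low value of knockout replicate 3 alone brings the knockout mean under the control level. With that value raised to the control level, the wild type mean was 1.39-fold above the knockout mean, and the groups overlapped. The measured difference was -1.32 (SE 0.996, adjusted p = 0.739, limma), and -0.15 without knockout replicate 3. The Hba-a2 probe set 1427219_at, between 79.6 and 169.8, and the Hbb-b2 probe set 1427865_at, between 36.9 and 219.1, had means below the control level in both genotypes. Their differences compare signals at background.

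**Figure D3:**
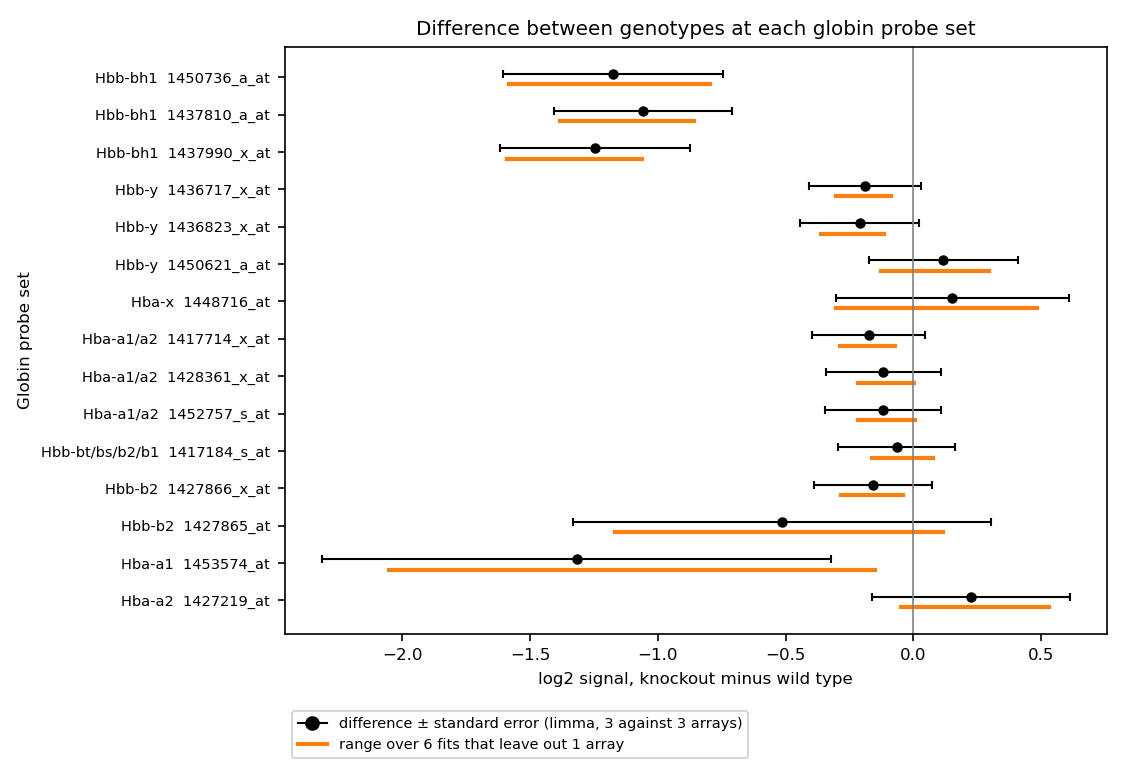
Difference in log2 signal, knockout minus wild type (x axis), at each globin probe set (y axis), with points for the difference ± SE of limma's fit and bars for the range over 6 fits that leave out 1 array. The 3 Hbb-bh1 probe sets lie between -1.25 and -1.06 with bars that stay below 0, and the 9 other probe sets above the control level lie between -0.21 and 0.15.

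Genes that work with the globins were read from lists, each gene by its brightest probe set with a single symbol, over 18193 genes. None of the 57 measured genes of the 4 partner lists passed an adjusted p of 0.05 in limma's fit or in that with the trend, where 0.044% and 0.44% of all genes passed. At an unadjusted p under 0.05 there were 5 of the 57, against 8.9% of all genes. The median difference of all genes was -0.08.

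Heme synthesis and transport genes, which supply the group that globin chains bind, differed by a median of -0.02 over 12 measured genes, 6 lower and 6 higher. Slc25a37, the mitochondrial iron importer of erythroid cells, differed by -0.37 (SE 0.20) and Uros, an enzyme of the pathway, by 0.28 (SE 0.20). Alas2, the first enzyme of erythroid heme synthesis, differed by -0.16 (SE 0.21). Slc25a37 and Alas2 were both near the ceiling.

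Regulators of globin transcription differed by a median of 0.02 over 31 genes, 14 lower and 17 higher. Myb, a factor of proliferating progenitors whose lower level goes with more fetal globin in human cells, had levels of 9.34 ± 0.72 in wild type and 10.99 ± 0.29 in knockout. That difference of 1.65 (SE 0.40) had an adjusted p of 0.402, or 0.0651 with the trend (limma). Ldb1, which links the globin enhancers to their promoters, differed by 0.87 (SE 0.29). Both had all knockout above all wild type arrays, as did 5 of the 31 regulators and 7.02% of all genes. Another 3 of the 31 had all knockout below all wild type arrays, against 9.85% of all genes. Klf1, which activates adult beta globin, differed by -0.01 (SE 0.21). Bcl11a and Sox6, which repress the embryonic beta-like genes in definitive cells, differed by 0.20 (SE 0.29) and 0.12 (SE 0.18). These 3 genes were named for their role after their values were seen, and their groups overlapped.

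Among 11 genes of globin RNA and protein balance and of the alpha globin neighbourhood, 6 were lower and 5 higher, around a median of -0.03. Mpg, a DNA repair gene that lies beside the alpha globin cluster, differed by 0.85 (SE 0.31) with non-overlapping groups. Ube2o, a ubiquitin ligase that clears surplus alpha globin, differed by -0.36 (SE 0.21) and Eif2ak1, the heme-regulated kinase that limits globin translation, by -0.23 (SE 0.18). Of the other globin family genes, Mb (myoglobin), Ngb (neuroglobin) and Cygb (cytoglobin) were measured, and the means of all 3 were under the control level in wild type and in knockout.

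**Figure D4:**
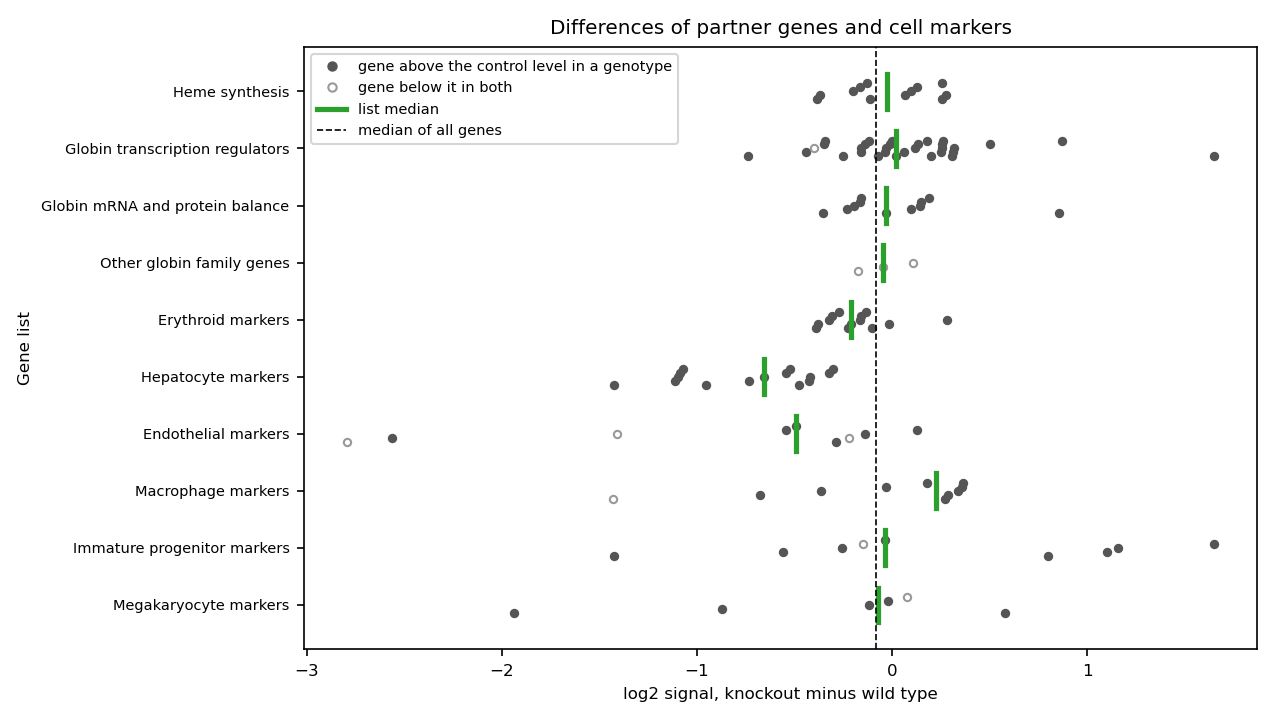
Difference in log2 signal, knockout minus wild type (x axis), of each measured gene in the partner and marker lists (y axis), with list medians and the median of all genes (-0.08). Hepatocyte markers lie wholly below 0 with a median of -0.65, whereas heme synthesis genes and globin regulators have medians of -0.02 and 0.02.

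None of the 62 marker genes measured passed an adjusted p of 0.05 in limma's fit (lowest 0.346), where 0.044% of all genes passed. With the trend again none passed (lowest 0.0613), against 0.44% of all genes. At an unadjusted p under 0.05 there were 15 of the 62, against 8.9% of all genes. The values of these markers are given beside those of Hbb-bh1, and their part in these was not tested. All 15 measured hepatocyte markers were lower in knockout pools and each had a mean over the control level in wild type, in knockout or in both. 9 had non-overlapping groups, against 9.85% of all genes with knockout lower. Their summed signal ran from 157695 to 269493 in wild type and from 136041 to 149990 in knockout pools. Alb, the albumin gene, read 15.79 ± 0.27 and 15.36 ± 0.11 near the ceiling, and Cps1, a urea cycle enzyme, differed by -1.43 (SE 0.31). Knockout replicate 3, the knockout array highest in Hbb-bh1, had the highest knockout sum of hepatocyte markers. Alb and Afp (alpha-fetoprotein), both near the ceiling, gave 42365 and 43835 of that sum of 149990. The order of the knockout arrays varied between single markers. Apob, an apolipoprotein gene, was highest in knockout replicate 3, Ahsg in replicate 2 and Cps1 in replicate 1. Wild type replicate 2, the array with the highest summed signal of these markers, was second in Hbb-bh1.

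Of 13 measured erythroid markers, 12 were lower, with a median of -0.21 and a summed signal from 399414 to 430864 in wild type and from 334421 to 429480 in knockout pools. 5 of them, among them Epb42 (-0.39) and the transferrin receptor gene Tfrc (-0.38), had non-overlapping groups with knockout lower, as did 9.85% of all genes. Slc4a1, the anion exchanger of red cells, was near the ceiling on every array, and all 13 had means over the control level in a genotype or in both. Of 9 immature progenitor markers 5 were lower and 4 higher, around a median of -0.03, the latter including Myb and Myc, which differed by 1.10 (SE 0.23). Their summed signal ran from 4322 to 5552 in wild type and from 7742 to 9285 in knockout pools. Myb, Myc, Kit and Cd44 are the 4 higher genes. The 5 lower genes were Flt3 (-1.42), Meis1 (-0.56), Hoxa9 (-0.26), Cd34 (-0.15) and Gata2 (-0.03). The knockout mean of Flt3 and the means of Cd34 in both genotypes were under the control level.

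Endothelial markers were lower at 8 of 9 genes, and 3 of the 9 had means under the control level in wild type and in knockout. Their summed signal ranged from 2625 to 4860 in wild type and from 2446 to 3003 in knockout pools. Lyve1, of sinusoidal endothelium, read 277.7, 992.5 and 1024 in wild type replicates 1 to 3. All of its knockout signals were below the control level. The measured difference was -2.56 (SE 0.57, adjusted p = 0.381, limma). With the knockout signals raised to the control level, the wild type mean was 4.04-fold above the knockout mean. That fold compares means and is no minimum, because wild type replicate 1 lay nearer the control level than the other wild type arrays. Tie1 was among the 3 with low means. Macrophage markers were lower at 4 and higher at 6 of 10 genes, around a median of 0.23. Their summed signals ran from 18502 to 29623 in wild type and from 24019 to 31289 in knockout pools. Megakaryocyte markers were lower at 4 of 6, around a median of -0.07, with sums from 3682 to 13652 and from 3818 to 5032. Vcam1, of the macrophages at the centre of erythroblast islands, was among the lower macrophage genes and differed by -0.68 (SE 0.27). Ppbp, a platelet chemokine gene, differed by -1.94 (SE 0.93) with overlapping groups. Wild type replicate 3 set the upper end of the megakaryocyte sum, and without that array the Ppbp difference was -0.87.

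The probe sets whose log2 signal over the 6 arrays was most like that of Hbb-bh1 at 1450736_a_at were searched among 18446 with a single symbol and both genotypes above the control level. The 5 with the highest Pearson correlation belonged to Fam120a (r = 0.996), Arfgap3 (0.995), Mydgf (0.988), Ndufa1 (0.986) and Agpat1 (0.986). They differed between genotypes by -0.26 to -0.56, less than Hbb-bh1 did. The correlation holds the genotype difference and each array's scaling, and 153 of the 18446 probe sets (0.829%) had an r above 0.9 over these 6 arrays.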

How the data were processed

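RNA of 6 pools was hybridised to 6 Affymetrix arrays, 1 pool each. The sample titles gave the group and the replicate number. The deposited table holds linear signal intensities, made by the authors, with a mean of 500 on every array once 2% is trimmed from both ends. Per the submitters' processing notes RMA and Partek were used. RMA gives log2 values and these are linear, and the sources used here do not describe the scaling. No value was at or below 0, so log2 was taken without a pseudocount.

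64 control probe sets were left out. Symbols came from the platform annotation (34945 probe sets with 1 symbol, 932 with several, 9160 with none). For single symbols, 34741 Entrez IDs matched a RefSeq table of GRCm38.p6, and 0 symbols changed. The test was limma 3.58.1 (R 4.3.3) lmFit and eBayes, knockout against wild type, with no filter on dim probe sets, Benjamini-Hochberg adjustment and a threshold of 0.05. For a gene whose dimmer group lies under the control level, dim values were raised to that level before the fold between group means was taken. The scripts were tested on simulated data. Named were all globin probe sets, the 2 members of each list with the smallest p, the fixed genes Alas2, Slc4a1, Alb, Stat5a and Stat5b, and the 5 genes most like Hbb-bh1. Eif2ak1, Klf1, Bcl11a, Sox6, Cygb, Kit, Cd44, Flt3, Meis1, Hoxa9, Cd34, Gata2, Afp and Apob were added after their values were seen. Of the genes this rule names, Cd163 had means under the control level in wild type and in knockout, Ahsg differed by -1.11 (SE 0.33) and Gp9 by 0.58 (SE 0.30). The members and lists were chosen with earlier results of these data known.

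Same-numbered arrays did not deviate together (correlations of deviations from the group means 0.017, 0.029 and 0.029), so the numbers were not taken to pair the pools. Alternatives were a mean-variance trend, the same with robust estimation, the ordinary t statistic, quantile normalization, median centring, the brighter part of the probe sets, log2(signal + 32), array weights, the replicate block, each array left out and, for gene lists, averaging a gene's probe sets or using only those without the suffixes _x_at, _s_at and _a_at. Promoter windows were aligned with Biopython 1.88.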

Additional observations from a re-analysis of the deposited data

How the results depend on the processing

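The count of globin probe sets past the threshold was 0 under all 15 alternatives run on probe sets, and the count of partner genes was 0 under all 17 run on genes. At an unadjusted p under 0.05 the count of globin probe sets ran from 0 to 3. It was 1 with the replicate number as a block, which called 0 globin probe sets and changed no call of a probe set. It was 0 without wild type replicate 1, knockout replicate 1 or knockout replicate 2. Over all 18193 genes the count of 8 became 0 with the block and in each fit that left out 1 array. Over all probe sets the count of 0 became 70 with the trend, 69 with the trend and robust estimation, 20 in the brighter part of the probe sets and 5 after adding 32. The median difference of all probe sets moved from -0.07 to 0.04 after median centring.

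All 3 Hbb-bh1 probe sets kept their sign under the 15 alternatives. Without 1 array their differences ran from -1.58 to -0.80 at 1450736_a_at, from -1.38 to -0.86 at 1437810_a_at and from -1.59 to -1.06 at 1437990_x_at. Other globin probe sets turned sign. After quantile normalization 1417184_s_at gave 0.028, 1417714_x_at 0.041 and 1428361_x_at 0.014, and after median centring 1417184_s_at gave 0.048. Without 1 array the values ran from -0.16 to 0.076 at 1417184_s_at, from -0.051 to 0.53 at 1427219_at, from -1.17 to 0.12 at 1427865_at (both with means under the control level, so these compare background signals), from -0.22 to 0.0023 at 1428361_x_at, from -0.30 to 0.48 at 1448716_at, from -0.13 to 0.29 at 1450621_a_at and from -0.22 to 0.0070 at 1452757_s_at. The cause was not tested. Signals near the ceiling may limit what 7 of the 15 probe sets can show, which was not tested.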
